A study of Mus musculus with 28 samples.

Results

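Acetylated histone H3 was measured at the ends of protein-coding genes where no glucocorticoid receptor peak lay. The set held 11120 of the 63313 deposited H3K27ac peaks (17.6%). Each of its peaks was shorter than 8000 bp, lay within 1 kb of the start or the far end of an mm10 RefSeq protein-coding gene and overlapped none of the 8394 deposited peaks of the glucocorticoid receptor (GR). Position alone chose the peaks, and no count entered the choice. A further 609 peaks lay at a gene end and overlapped GR, 47798 lay elsewhere without GR, 2870 lay elsewhere with GR, and 916 were 8000 bp or longer.

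The libraries were chromatin immunoprecipitation sequencing (ChIP-seq) of primary macrophages, derived from marrow over 5 days in L-cell conditioned medium; the donors were C57BL/6 males of 8 to 10 weeks. The H3K27ac libraries formed 4 groups of 3: vehicle, 500 nM corticosterone (Cort, the main natural glucocorticoid of mice), 100 nM dexamethasone (Dex, a synthetic glucocorticoid) and 10 ng/ml interleukin 4 (IL4, a cytokine that signals through STAT6), with 24 h of exposure to each agent. The titles of the vehicle libraries state no time, and the columns headed C were matched to vehicle by elimination. The 15 GR libraries of the same culture type entered only through their peaks. They came from vehicle, Cort, Dex and IL4 at the same doses, each titled 24 h. Their titles also name batches: vehicle, Cort and Dex libraries were in both, and all IL4 libraries shared the same batch. The GR peaks were used together and not split by treatment or batch. A lack of GR here therefore means no overlap with any deposited GR peak, and a distance to GR is not tied to a particular treatment. Nothing in the labels ties replicates to different animals, and p-values therefore measure only the spread between these libraries, which may be technical.

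Acetylation of lysine 27 on histone H3 marks active promoters and active enhancers. Promoters of widely expressed genes are mostly rich in CpG and carry the mark in many cell types, whereas enhancers and CpG-poor promoters tend to be acetylated in a cell-type-specific or signal-dependent way. GR bound by a steroid often acts from enhancers at a distance from the gene, and STAT6 phosphorylated after IL4 exposure binds promoters and enhancers of genes of alternative activation. The comparisons ask how far acetylation at gene ends moved under each agent where GR itself was not found.

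The peaks at gene ends were longer and stronger than most. Their median length was 1674 bp against 1013 bp over all H3K27ac peaks, and their median abundance was 3.91 on the log2 scale of CPM (counts scaled to a common library size) against 2.18 over the peaks tested. Of the 11120, 7979 (71.8%) overlapped a gene end and the others lay within the window beside it. Strand was available for 17491 of 21896 protein-coding genes. By it, 6828 peaks lay at a gene start only, 1629 at a far end only and 743 at both, and for 1920 the strand was not in the table used. Peaks near 1 gene numbered 9008 and peaks near the ends of 2 or more genes 2112. The nearest GR peak was 56.8 kb away at the median. The count filter passed 10919 of these peaks for testing and left out 201, among which nothing is said of change.

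The libraries held 6829787 to 15695771 reads in H3K27ac peaks. The gene-end peaks without GR held 26.2% to 28.1% of them in every library, 27.1% ± 0.955 with vehicle, 27.2% ± 0.835 with Cort, 27.3% ± 0.488 with Dex and 27.1% ± 0.468 with IL4 (SD, n = 3). The differences from vehicle were 0.097, 0.22 and -0.036 percentage points (exact two-sided permutation tests, p = 0.7, 0.9 and 1, each 1 after Benjamini-Hochberg adjustment over 3 comparisons, where 0.1 is the smallest p that 3 against 3 allows). All 11 macrophage markers examined, Csf1r, Adgre1 and Spi1 among them, had an H3K27ac peak at a gene end, with a summed level of 2006 to 2770 CPM per library. Of the 15 macrophage marker peaks, 7, at 4 of the genes, belonged to the set. A gene-end peak was also present for 3 of 6 neutrophil, 3 of 6 lymphoid and 2 of 5 dendritic markers. The same held for 1 of 5 erythroid or megakaryocyte and 3 of 5 osteoclast markers. None of 5 fibroblast and none of 4 mast cell or basophil markers had one.

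Promoter sequence is shown for 8 peaks whose values are given further on, to set promoters that moved beside promoters with intervals near 0. Each is the 250 bases before the RefSeq start, 5′ to 3′ on the gene's strand, lies inside its peak and overlaps no RefSeq gene (GRCm38.p6, the mm10 build). Capitals mark matches on either strand to 8 short motifs, given below, and a stretch in lower case throughout has none. The peaks at Ddit4 (chr10:59951771-59952020, minus strand), Klf9 (chr19:23140976-23141225, plus strand) and Cd38 (chr5:43868559-43868808, plus strand) were higher with both steroids. Those at Tmem26 (chr10:68723496-68723745, plus strand) and Marco (chr1:120505025-120505274, minus strand) were higher and lower with IL4, and that at Slc13a3 (chr2:165473198-165473447, minus strand) was lower with Dex and with IL4. Those at Cdt1 (chr8:122567765-122568014, plus strand) and Fermt3 (chr19:7019470-7019719, minus strand) were among the 10 most abundant peaks whose intervals stayed near 0 in all 3 treatments.
Ddit4: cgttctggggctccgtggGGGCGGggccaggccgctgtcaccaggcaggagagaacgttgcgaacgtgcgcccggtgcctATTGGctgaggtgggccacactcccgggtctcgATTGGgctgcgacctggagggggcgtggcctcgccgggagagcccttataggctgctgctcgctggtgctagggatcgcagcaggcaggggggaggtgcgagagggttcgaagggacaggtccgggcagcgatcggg
Klf9: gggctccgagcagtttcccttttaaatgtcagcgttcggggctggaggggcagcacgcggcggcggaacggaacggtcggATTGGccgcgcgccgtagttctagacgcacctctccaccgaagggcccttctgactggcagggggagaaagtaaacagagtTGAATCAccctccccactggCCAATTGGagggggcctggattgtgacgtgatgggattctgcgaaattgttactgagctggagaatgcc
Cd38: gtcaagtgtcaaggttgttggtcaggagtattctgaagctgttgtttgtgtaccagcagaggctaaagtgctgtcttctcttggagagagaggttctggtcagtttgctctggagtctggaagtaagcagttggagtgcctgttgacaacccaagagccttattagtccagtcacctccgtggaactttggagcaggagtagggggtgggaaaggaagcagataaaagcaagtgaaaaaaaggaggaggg
Tmem26: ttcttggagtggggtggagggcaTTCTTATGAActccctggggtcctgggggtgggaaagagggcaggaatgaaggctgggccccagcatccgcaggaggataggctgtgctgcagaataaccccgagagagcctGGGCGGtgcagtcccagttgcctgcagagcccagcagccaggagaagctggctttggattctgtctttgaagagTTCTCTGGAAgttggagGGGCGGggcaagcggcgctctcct
Marco: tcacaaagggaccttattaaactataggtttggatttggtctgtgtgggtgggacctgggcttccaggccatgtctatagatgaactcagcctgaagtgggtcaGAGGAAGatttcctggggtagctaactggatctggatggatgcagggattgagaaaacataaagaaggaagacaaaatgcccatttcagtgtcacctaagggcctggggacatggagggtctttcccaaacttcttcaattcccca
Slc13a3: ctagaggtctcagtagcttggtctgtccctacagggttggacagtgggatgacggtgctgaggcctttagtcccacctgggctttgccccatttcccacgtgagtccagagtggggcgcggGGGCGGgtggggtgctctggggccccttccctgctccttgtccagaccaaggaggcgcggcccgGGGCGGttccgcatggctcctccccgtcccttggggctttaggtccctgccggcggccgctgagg
Cdt1: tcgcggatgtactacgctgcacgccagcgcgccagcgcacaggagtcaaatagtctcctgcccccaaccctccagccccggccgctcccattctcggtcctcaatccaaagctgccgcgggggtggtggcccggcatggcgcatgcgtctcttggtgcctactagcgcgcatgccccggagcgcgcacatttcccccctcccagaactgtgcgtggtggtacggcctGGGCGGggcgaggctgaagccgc
Fermt3: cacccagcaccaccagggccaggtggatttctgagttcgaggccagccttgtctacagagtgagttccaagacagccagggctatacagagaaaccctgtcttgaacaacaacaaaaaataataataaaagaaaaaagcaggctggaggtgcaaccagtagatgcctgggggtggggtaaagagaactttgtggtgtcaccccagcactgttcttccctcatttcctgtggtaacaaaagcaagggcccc

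CpG dinucleotides numbered 22 in the Ddit4 stretch, 18 in Klf9 and 25 in Cdt1, against 1 in Cd38, 0 in Marco and 1 in Fermt3. Tmem26 had 6 and Slc13a3 had 14. The 2 longest capital runs of Tmem26 match the STAT6 palindrome, TTC and GAA with 4 bases between them, and Marco carries GAGGAAG, a form bound by the macrophage factor PU.1. No stretch shown holds ACANNNTGT, the core of a GR site. A match is a description of letters and not a site of binding.

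The size of change was small at most of these peaks. The log2 change is the fitted difference between group means on the log2 scale, and a peak was called where its Benjamini-Hochberg adjusted p from edgeR's quasi-likelihood test, over 59881 tested peaks, lay under 0.05. The median absolute log2 change over the 10919 peaks was 0.15 with Cort, 0.18 with Dex and 0.22 with IL4, against 0.27, 0.31 and 0.50 over all tested peaks. The median standard error was 0.20, 0.19 and 0.19 in the main fit, which leaves out the pairing of libraries described below. In that fit a typical change was about as large as its own error. The signed median was 0.05, 0.06 and 0.02. From the 5th to the 95th percentile, changes ran from -0.48 to 0.57 with Cort, from -0.53 to 0.65 with Dex and from -0.87 to 1.04 with IL4. The 95% interval of the change lay wholly within 0.5 log2 unit of 0 at 34.9%, 32.0% and 27.75% of the peaks, against 12.1%, 10.9% and 8.49% of all tested peaks. Within 1 log2 unit it lay at 78.1%, 76.7% and 70.1%, against 49.2%, 46.7% and 36.3%. At gene ends that overlap GR, the shares within 0.5 were 34.7%, 32.7% and 29.9%, near those of the set. These intervals come from the same fit without pairing. They take in abundance, since stronger peaks have smaller errors. No test was made between classes of peaks, which share libraries and are not replicates.

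**Figure D1:**
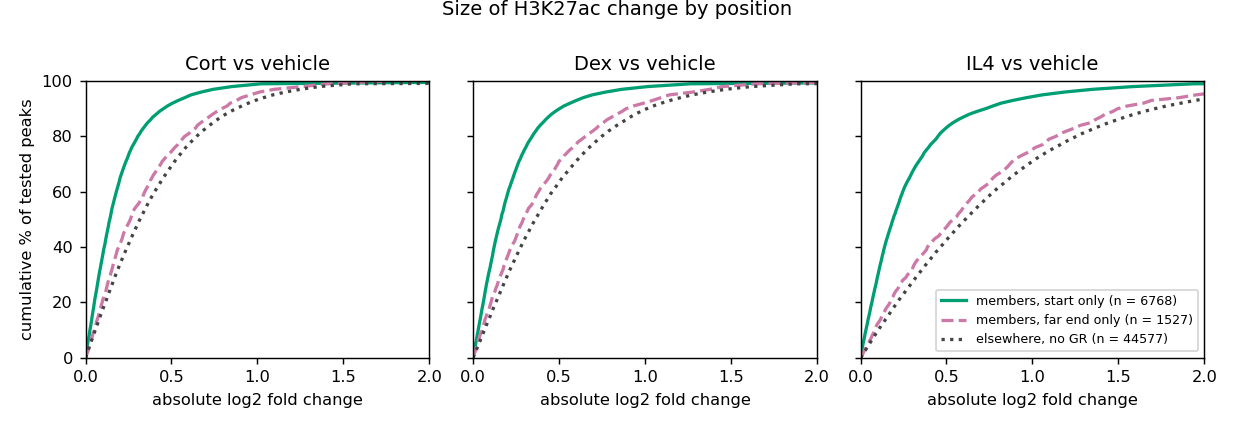
Cumulative percent of tested peaks (y axis) against the absolute log2 fold change (x axis, drawn to 2) for Cort, Dex and IL4 against vehicle. Solid lines are peaks without GR at a gene start only (n = 6768) and dashed lines those at a far end only (n = 1527). Dotted lines are peaks elsewhere without GR (n = 44577). In each panel the start peaks have the smallest median, and the far-end median lies nearer to that of peaks elsewhere than of starts. The largest changes of start peaks lie beyond the drawn axis in each panel.

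Without a replicate block, few peaks were called with the steroids and more with IL4. Cort gave 45 peaks higher and 14 lower, 0.540% of the 10919, where 1.55% of all tested peaks were called. Dex gave 167 higher and 91 lower, 2.36% beside 5.24% of all tested. IL4 gave 1007 higher and 723 lower, 15.8% beside 27.6% of all tested. Each share lay below its background. By direction, 1.18% of all tested peaks were higher and 0.376% lower with Cort, 2.9% and 2.34% with Dex, and 14.7% and 12.9% with IL4. Libraries with the same replicate number deviated together and were taken as paired. The main fit leaves this pairing out, and counts, standard errors and adjusted p are from it unless another fit is named. With the replicate number as a block the counts were 508 and 259 with Cort (7.02%, beside 12.6% of all tested), 890 and 558 with Dex (13.3%, beside 20.3%), and 1763 and 1363 with IL4 (28.6%, beside 43.5%). Over all tested peaks the block gave 6.44% higher and 6.13% lower with Cort, 9.91% and 10.3% with Dex, and 21.9% and 21.6% with IL4. The share at gene ends was below that of all tested peaks with and without the block.

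In the fit without the block, the counts for the steroids depended on single libraries. Libraries were not left out in turn with the block. The 59 calls with Cort became 33, 27 and 13 without vehicle replicate 1, 2 and 3, and 22 and 23 without Cort replicate 1 and 3. The 258 calls with Dex became 146, 108 and 83 without the same vehicle libraries and 94 and 96 without Dex replicate 1 and 3. The 1730 calls with IL4 became 1085 without IL4 replicate 3. The higher share of the Cort calls was 76.3%, but 61.5% under total-count scaling and 93.3% when scaled by the peaks with the lowest counts. For Dex it was 64.7%, and 51.3% under total-count scaling.

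Position within the gene went with the size of change. With IL4, 12.6% of the 6768 peaks at a gene start only were called, and their median absolute log2 change was 0.19. Of the 1527 peaks at a far end only, 28.6% were called, with a median of 0.54, close to the 30.0% and 0.61 of peaks elsewhere without GR. With Dex, 97 start peaks were higher and 32 lower, whereas 21 far-end peaks were higher and 40 lower. At or above the median abundance of the set, 8 far-end peaks were higher and 8 lower with Dex, and 58 start peaks were higher and 11 lower. Far-end peaks were weaker, with a median abundance of 2.07 log2 CPM against 4.11. Among peaks at or above the median abundance of the whole set, 13.8% of start peaks and 34.3% of far-end peaks were called with IL4, so the gap was present at matched abundance. Peaks near both a start and a far end were called at 13.9%, and peaks whose strand was not in the table at 17.9%.

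**Figure D2:**
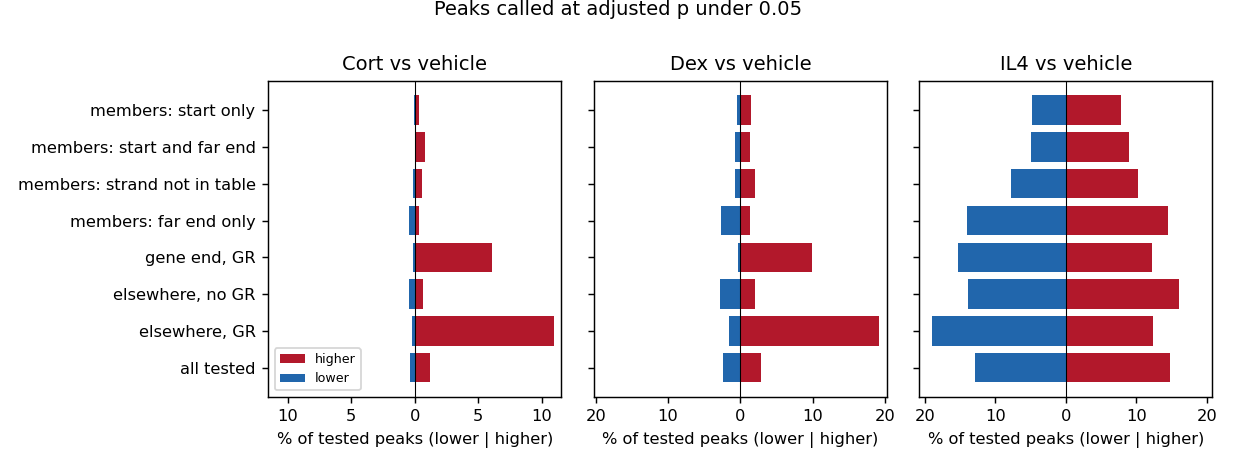
Percent of tested peaks called lower (left of 0, blue) and higher (right of 0, red) in each treatment against vehicle, by position; the x axes differ between panels. The upper 4 bars are gene-end peaks without GR, and the highest red bars with Cort and Dex are those of peaks that overlap GR elsewhere in the genome.

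The lower share at gene ends was seen in each band of abundance. The tested peaks at gene ends were split by abundance into 4 bands of about equal number, and peaks elsewhere without GR were put into the same bands. With IL4, 15.0%, 16.8%, 14.0% and 17.6% of the gene-end peaks were called from the weakest to the strongest band, against 24.9%, 38.6%, 40.6% and 36.6% elsewhere. With Dex the shares were 1.94%, 2.97%, 2.02% and 2.53%, against 2.83%, 8.07%, 9.14% and 7.43%. At the edges of the rule, IL4 called 15.3% of peaks 1 to 500 bp from a gene end, 23.6% of those farther off but within 1 kb, and 25.6% of peaks without GR up to 1 kb outside the window. IL4 called 33.1% of the 121 longest peaks of the set, all within 1 kb below the limit of length, and 29.55% of the 88 peaks up to 1 kb above it.

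CpG content went with the response to IL4. A RefSeq promoter window of 300 bases, 250 before to 50 after the start, was available for 7246 of the tested peaks at a gene end. CpG content was taken as the observed number of CpG over the number expected from the C and G of the window. Of peaks whose promoter lay at 0.2 or below, 34.0% of 324 were called with IL4. The share was 25.3% between 0.2 and 0.4, 12.1% between 0.4 and 0.6, 9.78% between 0.6 and 0.8 and 10.3% above 1. Of peaks at or above the median abundance, 24.0% of 746 with a ratio under 0.6 were called and 11.4% of 3370 with a higher ratio. With Dex the lowest and highest bins had 3.70% and 1.23% called. With Cort they had 1.24% and 0.094%, which is 4 peaks and 1 peak, and 0.641% were called between 0.8 and 1.

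**Figure D3:**
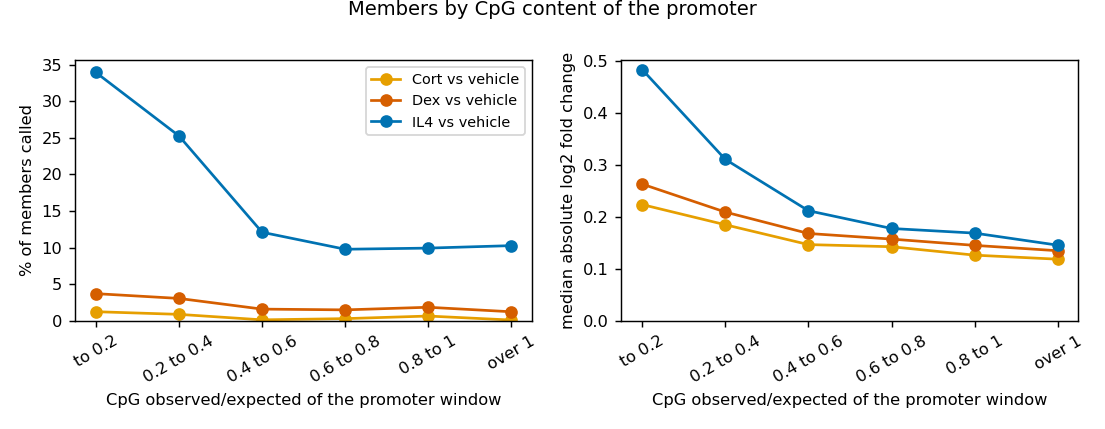
Percent of gene-end peaks without GR called (left) and median absolute log2 fold change (right) against the CpG observed/expected ratio of the promoter window, in 6 bins, for Cort, Dex and IL4 against vehicle. The IL4 line falls from 34.0% called in the lowest bin to 10.3% in the highest, and the medians of all 3 treatments fall with it.

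The promoters of the set had the letters of CpG-rich promoters. GGGCGG, the GC box bound by SP and KLF factors, was in 67.0% of the 7246 windows against 46.2% of all 21262 windows of protein-coding genes. CCGGAAG, an ETS site, was in 20.9% against 11.6%, and TATAAA, the TATA box, in 6.28% against 12.6%. CCAAT, the NF-Y box, was in 40.4% against 38.2%. ACANNNTGT was in 3.29% against 5.97%, TGANTCA (AP-1) in 4.54% against 6.99%, and the STAT6 palindrome in 5.44% against 6.35%. Both strands were searched, and ETS and PU.1 letters can overlap.

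Windows of peaks that were higher with the steroids were few, 29 with Cort and 96 with Dex. None of either held ACANNNTGT, which was in 3.29% of the windows of the set. At that share few would hold it among 29 or 96 windows, so its lack there says little. GAGGAAG was in 9 of 29 (31.0%) and in 27 of 96 (28.1%), beside 13.6% over the set and 13.6% over all windows. It was also in 8 of 33 windows lower with Dex (24.2%) and in 17.5% of the 326 lower with IL4. Other letters differed too. CCGGAAG was in 3.45% of the windows higher with Cort, 9.38% of those higher with Dex and 0 of the 33 lower with Dex, beside 20.9% over the set. It was in 13.0% of windows higher and 9.51% of windows lower with IL4. CCAAT was in 51.7% and 49.0% of windows higher with Cort and Dex, beside 40.4% over the set. Among the 560 windows higher with IL4, the STAT6 palindrome was in 5.89%, close to the 5.44% of the set, and GAGGAAG in 14.6%. These shares were not tested.

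GR peaks lay nearer to gene ends that gained acetylation with a steroid. The 45 peaks higher with Cort had their nearest GR peak at a median of 7.02 kb, against 57.3 kb for the 10860 not called, and 24 of them (53.3%) had one within 10 kb, against 12.8%. The 167 peaks higher with Dex had a median of 18.1 kb, and 34.1% had a GR peak within 10 kb. The 91 peaks lower with Dex stood at 55.7 kb and 12.1%, near the values of peaks not called. With IL4 the medians were 53.4 kb for higher, 41.3 kb for lower and 58.8 kb for peaks not called. Put the other way, up to 5 kb from a GR peak 1.56% of 771 gene-end peaks were higher with Cort and 3.24% with Dex, from 5 to 10 kb 1.87% and 4.98% of 642, and over 100 kb away 0.0818% and 0.736% of 3669, beside 1.18% and 2.9% of all tested peaks. Peaks elsewhere without GR showed the same order, with 1.90% and 5.07% up to 5 kb and 0.332% and 1.15% over 100 kb, so it was not particular to gene ends. No gene-end peak within 20 kb was lower with Cort without the block, whereas with the replicate block 12 were lower up to 5 kb, 22 from 5 to 10 kb and 28 from 10 to 20 kb, beside 68, 66 and 96 higher.

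**Figure D4:**
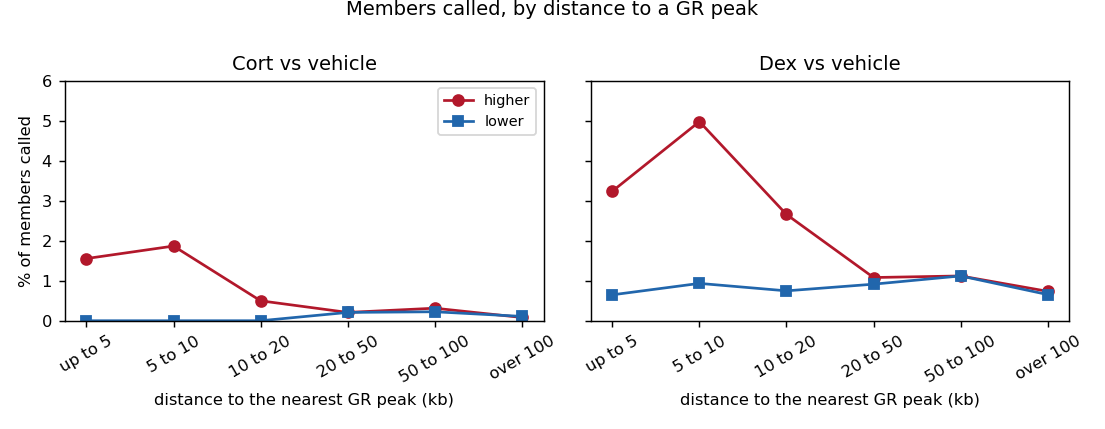
Percent of tested gene-end peaks without GR called higher (red circles) or lower (blue squares) with Cort (left) and Dex (right), by distance in kb to the nearest GR peak, on a common y axis. The percent called higher is largest in the 3 bins up to 20 kb, and the percent called lower with Dex is at most 1.12%.

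Fkbp5, Ddit4 and Klf9, classical targets of GR, showed the 3 highest rises with Cort among called peaks at or above the median abundance of the set. The highest over the whole set was 2.94, at a peak of Zbtb16 outside that rule. Fkbp5 encodes a co-chaperone that lowers the affinity of GR for its ligand. Its start peak (chr17:28482632-28486108, 8.03 kb from a GR peak) held 7.68, 6.31 and 5.27 CPM with vehicle, 45.5, 34.0 and 49.1 with Cort, 58.2, 44.5 and 58.4 with Dex, and 9.49, 5.51 and 5.35 with IL4. Every steroid library lay above every vehicle and IL4 library, while vehicle and IL4 overlapped. The log2 change was 2.75 ± 0.25 with Cort (adjusted p = 6.54e-05), 3.08 ± 0.25 with Dex (adjusted p = 1.94e-05) and 0.07 ± 0.25 with IL4 (adjusted p = 0.874; ± is the standard error throughout for log2 changes). CPM here and below are normalised by trimmed mean of M values (TMM), which equalises the bulk of the peaks.

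Ddit4, an inhibitor of mTORC1 signalling, held 17.2, 17.7 and 14.3 CPM with vehicle, 97.8, 64.1 and 113 with Cort, 173, 93.2 and 186 with Dex, and 16.5, 12.1 and 15.9 with IL4 (chr10:59946748-59953412). The steroid groups lay apart from the other groups. Its change was 2.48 ± 0.27 with Cort (adjusted p = 3.49e-04) and 3.21 ± 0.27 with Dex (adjusted p = 2.88e-05). Klf9, a zinc finger repressor, held 12.3, 14.5 and 15.8 CPM with vehicle, 64.8, 43.5 and 58.9 with Cort, 76.6, 59.0 and 70.6 with Dex, and 37.3, 32.7 and 40.8 with IL4 (chr19:23139680-23143457). It differed from Fkbp5 and Ddit4 in that the IL4 libraries too lay above vehicle, below every Cort library. The change was 1.97 ± 0.18 with Cort, 2.27 ± 0.18 with Dex and 1.38 ± 0.18 with IL4 (adjusted p = 7.42e-05, 1.87e-05 and 1.21e-04).

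Mertk, a receptor for the uptake of apoptotic cells, held 25.8, 27.5 and 29.8 CPM with vehicle, 63.5, 53.7 and 78.6 with Cort, 72.5, 52.2 and 79.9 with Dex, and 28.2, 30.6 and 30.9 with IL4 (chr2:128697374-128701826). Vehicle and IL4 overlapped, and both steroid groups lay above them. The change was 1.23 ± 0.18 with Cort (adjusted p = 0.00283) and 1.30 ± 0.18 with Dex (adjusted p = 0.00103). Jdp2, a bZIP repressor of AP-1, rose by 1.46 ± 0.12 with Cort and 1.47 ± 0.12 with Dex (adjusted p = 5.37e-05 and 2.67e-05). Rnf169, a ubiquitin-binding protein of the DNA damage response, rose by 1.04 ± 0.16 and 1.27 ± 0.16. The steroid calls at Fkbp5, Ddit4, Klf9, Mertk, Jdp2 and Rnf169 held without each library in turn.

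Cd38, an ectoenzyme that consumes NAD, Lifr, the receptor of leukaemia inhibitory factor, Htr2a, a serotonin receptor, and Wee1, a kinase that holds back mitotic entry, completed the 10 highest in both steroid comparisons. Cd38 held 12.5, 11.3 and 7.01 CPM with vehicle, 31.8, 44.0 and 19.3 with Cort, and 42.0, 56.5 and 21.0 with Dex. The groups did not overlap, but replicate 3 was the lowest of each. The change was 1.64 ± 0.37 with Cort (adjusted p = 0.0465) and 1.97 ± 0.38 with Dex (adjusted p = 0.00913). The Cort call was lost without any vehicle library and without Cort replicate 1 or 2, and the Dex call without vehicle replicate 3. Lifr rose by 1.43 ± 0.26 and 1.59 ± 0.26, and its Cort call was lost without vehicle replicate 2 or 3 or Cort replicate 1. Htr2a rose by 1.07 ± 0.21 and 1.25 ± 0.21 with the steroids and by 1.35 ± 0.21 with IL4 (adjusted p = 4.52e-04). Its Cort call was lost without any vehicle library and without Cort replicate 1 or 3. Wee1 rose by 1.04 ± 0.18, 1.36 ± 0.18 and 0.74 ± 0.18 with Cort, Dex and IL4, and its Cort call was lost without vehicle replicate 3.

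**Figure D5:**
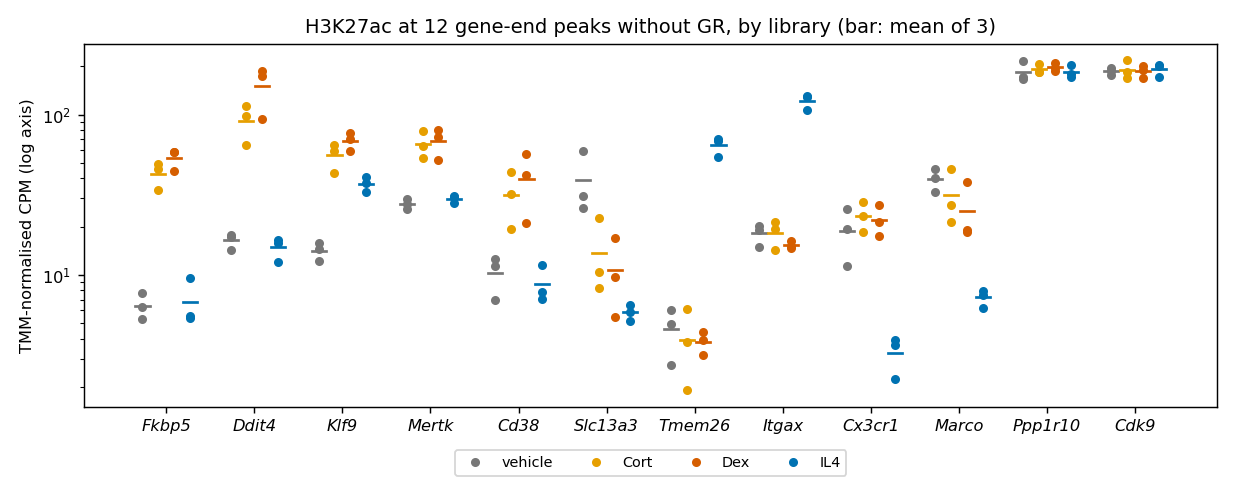
H3K27ac in TMM-normalised CPM on a log axis at 12 gene-end peaks without GR, 1 point per library and a bar at the mean of 3, for vehicle (grey), Cort (light orange), Dex (dark orange) and IL4 (blue). Fkbp5, Ddit4, Klf9, Mertk and Cd38 are high in both steroid groups, Tmem26 and Itgax in IL4 alone, Cx3cr1 and Marco low in IL4, and Ppp1r10 and Cdk9 level across the groups.

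Of the 14 falls with Cort, 8 had a log2 change of at least 1 in size. The rule for named peaks, which asks for median abundance or more and no overlap with vehicle, left 4: Akr1b10, a reductase of aldehydes, Rab4a, a GTPase of endosome recycling, Sike1, an inhibitor of innate immune kinases, and Ptpa, an activator of protein phosphatase 2A. Their changes were -0.73 ± 0.16, -0.66 ± 0.15, -0.61 ± 0.13 and -0.57 ± 0.13 (adjusted p from 0.036 to 0.0487). Each call was lost under scaling by the low-count peaks, in a fit of the compared groups alone, and without vehicle replicate 2 or 3 or Cort replicate 1, and some of them without other libraries too. Ptpa went the other way with IL4, by 0.98 ± 0.13 (adjusted p = 1.48e-04). It held 27.1, 26.6 and 29.6 CPM with vehicle, 19.8, 16.7 and 19.8 with Cort, 19.2, 18.4 and 19.4 with Dex, and 50.3, 55.2 and 59.2 with IL4, without overlap between vehicle and any treatment.

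Among the falls with Dex that met the named-peak rule, Slc13a3, a transporter of dicarboxylates such as succinate, had the largest. Called peaks outside the rule fell further, such as Serpinb1b at -2.40 and Eif3e at -2.10, which were chosen after their values were seen. It held 26.0, 59.3 and 31.1 CPM with vehicle, 8.22, 22.5 and 10.4 with Cort, 9.66, 16.9 and 5.48 with Dex, and 5.18, 6.48 and 5.89 with IL4 (chr2:165469669-165474717). Replicate 2 was the highest in each group, and every treated library lay below every vehicle library. The change was -1.86 ± 0.43 with Dex (adjusted p = 0.0254) and -2.72 ± 0.45 with IL4 (adjusted p = 7.71e-04). With Cort it was -1.48 ± 0.43 (adjusted p = 0.117). The Dex call was lost without vehicle replicate 2 or 3 or Dex replicate 1 or 3. Of the other 9 named falls with Dex, from -1.13 to -0.75, those of Litaf, Septin9, Basp1, Ms4a1 and Nsl1 were lost without Dex replicate 1 or 3 or vehicle replicate 2. Haao and Syn2 were lost without vehicle replicate 1 or 3 or Dex replicate 1, and Haao also without Dex replicate 2 or 3. Scaling by the low-count peaks ended all of these calls and that of Rab4a, and kept those of Slc13a3 and Akr1b10.

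Ms4a1 encodes CD20, a marker of B cells, and belongs to a list of 6 lymphoid markers, of which 3 had an H3K27ac peak at a gene end. Its peak held 86.3, 123 and 102 CPM with vehicle, 59.4, 81.9 and 55.1 with Cort, 51.4, 66.5 and 55.9 with Dex, and 38.5, 66.7 and 42.2 with IL4. Every treated library lay below every vehicle library. The change was -0.84 ± 0.22 with Dex (adjusted p = 0.0417) and -1.08 ± 0.22 with IL4 (adjusted p = 0.00287). With Cort it was -0.66 ± 0.22, adjusted p = 0.174, and 7.19e-05 with the replicate block. The summed level at the gene ends of the lymphoid markers ran from 150 to 203 CPM with vehicle, 116 to 150 with Cort, 102 to 132 with Dex and 97.1 to 137 with IL4. The Ms4a1 peak made up much of this sum. Over the 4 lymphoid marker peaks of the set, log2 changes with IL4 ran from -1.28 to 0.62, with 1 above 0. With Cort and Dex none was above 0. In bulk chromatin, fewer cells of a type and less of the mark per cell cannot be told apart, and the part of other cells in any result was not tested.

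IL4 gave the widest range. Tmem26, a membrane protein used as a marker of beige fat cells, had the highest rise by the rule. It held 6.07, 4.91 and 2.73 CPM with vehicle, 6.09, 3.83 and 1.91 with Cort, 4.40, 3.94 and 3.14 with Dex, and 70.9, 54.5 and 68.4 with IL4 (chr10:68722814-68727417). Only the IL4 libraries stood apart. The change was 3.85 ± 0.34 (adjusted p = 9.41e-06). Mcf2l, a guanine nucleotide exchange factor, rose by 3.82 ± 0.22 at the far end of a gene span (adjusted p = 8.55e-07). Ang6 and Rnase2a, of the ribonuclease A family, rose by 3.8 ± 0.23 and 3.41 ± 0.24. Genes of that family have near-identical copies, so reads there may be shared between them and these values are uncertain.

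Itgax, which encodes the integrin CD11c, held 20.3, 15.0 and 19.2 CPM with vehicle, 21.3, 14.2 and 19.2 with Cort, 14.8, 15.1 and 16.1 with Dex, and 128, 107 and 130 with IL4 (chr7:128127307-128134471). Vehicle, Cort and Dex overlapped, and IL4 lay above them all. The change was 2.75 ± 0.17 (adjusted p = 9.83e-07). Angptl2, a secreted glycoprotein, rose by 2.49 ± 0.38, Rhoc, a GTPase of cell movement, by 2.46 ± 0.24, Rmi2, of the BLM helicase complex, by 2.43 ± 0.41, and Pcyox1l, a prenylcysteine oxidase-like protein, by 2.39 ± 0.23. Mrgpre, an orphan receptor, rose by 3.21 ± 0.53.

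Among the named falls with IL4, Cx3cr1, the fractalkine receptor, held 25.8, 11.3 and 19.4 CPM with vehicle, 28.5, 18.4 and 23.1 with Cort, 27.3, 17.4 and 21.3 with Dex, and 3.94, 3.65 and 2.23 with IL4 (chr9:120067699-120070063). The steroid groups overlapped vehicle and the IL4 libraries lay below all others. The change was -2.54 ± 0.32 (adjusted p = 1.20e-04). Marco, a scavenger receptor for bacteria and particles, held 32.8, 45.8 and 40.4 CPM with vehicle, 21.4, 45.9 and 27.2 with Cort, 19.1, 37.8 and 18.5 with Dex, and 7.52, 7.94 and 6.23 with IL4 (chr1:120501536-120506129). Replicate 2 was again the highest of each group. The change was -2.46 ± 0.32 with IL4 (adjusted p = 1.47e-04) and -0.66 ± 0.30 with Dex (adjusted p = 0.245).

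Pilra, an inhibitory receptor, fell by 2.40 ± 0.28 with IL4 and Tmem176a, a membrane protein of myeloid cells, by 2.41 ± 0.42. The largest fall by the rule was not at a promoter. It lay at the far end of Sel1l, a part of the machinery that degrades misfolded proteins of the endoplasmic reticulum, where vehicle held 16.1, 50.8 and 22.0 CPM and IL4 3.45, 3.32 and 2.17. The change was -3.33 ± 0.79 (adjusted p = 0.00705), with the widest error among the named falls. Zfp811, a zinc finger gene, fell by 3.10 ± 0.62, and the far end of Epha7, an ephrin receptor, by 2.69 ± 0.47. Ostn fell by 2.65 ± 0.72 and Cabp4 by 2.28 ± 0.70, and these 2 calls were lost without vehicle replicate 2 or IL4 replicate 3, that of Cabp4 also without IL4 replicate 1.

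Many strong promoters stayed level in all 12 libraries. At 1873 of the 10919 peaks (17.2%) the 95% interval lay within 0.5 log2 unit of 0 in all 3 comparisons with vehicle. The share was 4.59% of all tested peaks, 1.14% of peaks elsewhere without GR, 19.9% of start peaks and 3.14% of far-end peaks. Among gene-end peaks that overlap GR it was 16.8% (102 of 608), so this trait was not particular to gene ends without GR. Ppp1r10, which tethers protein phosphatase 1 in the nucleus, held 167, 217 and 172 CPM with vehicle, 184, 206 and 184 with Cort, 195, 209 and 187 with Dex, and 172, 204 and 179 with IL4. Cdk9, the kinase that releases paused RNA polymerase, held 177, 195 and 186, then 170, 184 and 218, then 170, 190 and 200, and 172, 200 and 204 in the same order. All groups overlapped at both. The IL4 interval was -0.27 to 0.26 at Ppp1r10 and -0.21 to 0.31 at Cdk9.

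Ppp1r18, an actin regulator of osteoclasts whose peak also spans an end of Nrm, Fermt3, which activates integrins in blood cells, and Kmt2e, a chromatin regulator, also met this criterion. So did Cdt1, which licenses DNA replication, although its IL4 change of 0.23 ± 0.12 had an adjusted p of 0.172, and 0.0164 with the replicate block. An interval within 0.5 log2 unit does not exclude smaller changes.

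Gene lists were described by their peaks at gene ends without GR, starts and far ends together, and no list was tested against other peaks. Every list was drawn up with results of these data known. Of 30 peaks at 24 of 35 glucocorticoid-induced genes, 7 rose and none fell with Cort, 10 rose and none fell with Dex, and 4 rose and 3 fell with IL4 (23.3%, 33.3% and 23.3%, beside 1.55%, 5.24% and 27.6% of all tested peaks). Over the set the shares were 0.540%, 2.36% and 15.8%. The genes that rose with Cort were Ddit4, Fkbp5, Klf9, Mertk, Tsc22d3, which encodes the glucocorticoid-induced leucine zipper, and Zbtb16, a zinc finger repressor. Dex added Hif3a, Il1r2 and Per1. The list's median log2 change was 0.37 with Cort and 0.55 with Dex, beside 0.05 and 0.06 over the set and 0.00 and 0.01 over all tested peaks. With the replicate block 11 rose and none fell with Cort (36.7%, beside 12.6% of all tested peaks). The list was drawn up with results of these data known and is not independent evidence of its direction.

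Of 38 peaks at 27 of 36 genes listed as induced by IL4 through STAT6, 23 were higher with IL4 and 1 was lower (63.2%, beside 27.6% of all tested peaks). The median log2 change was 1.56, beside 0.02 over the set and -0.02 over all tested peaks. This list too was drawn up with results of these data known and is not independent evidence of its direction. The rises included Slc7a2, an arginine transporter, at 4.20 ± 0.25 (adjusted p = 8.55e-07), and peaks of Retnla, Mrc1, Clec10a, Mgl2, Egr2, Irf4, Socs1, Cish and Pdcd1lg2. Slc7a2 (chr8:40861204-40863237) held 1.98, 1.72 and 1.24 CPM with vehicle, 3.69, 2.30 and 3.03 with Cort, 4.16, 3.46 and 2.85 with Dex, and 32.8, 30.0 and 26.3 with IL4. The peak that fell was at Ch25h, a sterol hydroxylase. With Dex 4 of the 38 rose, at Kdm6b, Nfil3, Rnase2a and Slc7a2, and 1 fell, again Ch25h (13.2% called, beside 2.36% of the set and 5.24% of all tested peaks). Kdm6b, a histone H3K27 demethylase, rose with both steroids, by 0.95 ± 0.17 (adjusted p = 0.0121) and 1.17 ± 0.17 (adjusted p = 0.00163), and the Cort call was lost without vehicle replicate 2 or 3 or Cort replicate 1 or 3. The Kdm6b peak was the only call of the list with Cort (2.63%, beside 1.55% of all tested peaks). With the block 8 rose and 4 fell with Cort (31.6%, beside 12.6% of all tested).

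The 12 peaks of 10 genes of antigen presentation by MHC class II were not called with either steroid by edgeR (2 with Cort and 1 with Dex at an unadjusted p under 0.05). Over all tested peaks 1.55% were called with Cort and 5.24% with Dex, and over the set 0.540% and 2.36%. At such shares a lack of calls among 12 peaks says little. With the replicate block 2 rose with Dex (16.7%, beside 13.3% of the set and 20.3% of all tested). With IL4 7 rose and 1 fell (66.7%, beside 27.6% of all tested peaks), with a median of 0.88. The list was chosen with results of these data known and is not independent evidence of this direction. H2-Aa, a class II chain, rose by 1.93 ± 0.23 (adjusted p = 7.22e-05), and Ciita, the master regulator of the class, rose too. H2-Ob, a chain of the H2-O modulator of peptide loading, fell by 1.10 ± 0.16 (adjusted p = 3.03e-04). Among 13 peaks of macrophage identity genes none was called with a steroid, which at the same shares says little. With IL4 5 rose and 3 fell (61.5%, beside 15.8% of the set and 27.6% of all tested), the falls at Cx3cr1 and Zeb2. Cebpa, a myeloid factor, rose by 1.13 ± 0.32 with IL4 (adjusted p = 0.0177). It was 0.84 ± 0.32 with Cort and 0.81 ± 0.32 with Dex (adjusted p = 0.252 and 0.171, but 7.12e-05 and 4.15e-05 with the replicate block).

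Of 25 peaks of lipid metabolism genes, 1 was called with each steroid (4.00%, beside 1.55% of all tested peaks with Cort and 5.24% with Dex). With IL4 4 rose (16.0%, beside 15.8% of the set and 27.6% of all tested peaks). Fabp4, a fatty acid carrier, rose with every agent, by 0.94 ± 0.21 with Cort, 1.13 ± 0.21 with Dex and 1.22 ± 0.21 with IL4 (adjusted p = 0.0392, 0.00745 and 8.81e-04). Its Cort call was lost without vehicle replicate 1 or 2 and without any Cort library. Pparg, the lipid-sensing receptor of alternative activation, rose by 1.73 ± 0.28 with IL4 (adjusted p = 6.11e-04) and was not called with a steroid. Of 17 circadian peaks none was called with Cort by edgeR (4 at an unadjusted p under 0.05), where 1.55% of all tested peaks were called. With Dex 2 rose (11.8%, beside 2.36% of the set and 5.24% of all tested). With IL4 5 rose and 1 fell (35.3%, beside 15.8% of the set and 27.6% of all tested). The 5 rises lay at only 2 genes, Bhlhe40 and Nfil3, and the list's median log2 change with IL4 was 0.02. Nfil3, a bZIP repressor of the clock, rose by 1.10 ± 0.25 with Dex (adjusted p = 0.0205, lost without vehicle replicate 1 or 3) and by 2.07 ± 0.25 with IL4 (adjusted p = 8.51e-05). Per1 rose by 0.86 ± 0.17 with Dex (adjusted p = 0.011, lost without vehicle replicate 3). None of 27 inflammatory or 18 interferon-response peaks was called with a steroid by edgeR (1 and 0 had an unadjusted p under 0.05 with Cort, 2 and 0 with Dex). Over all tested peaks 1.55% were called with Cort and 5.24% with Dex, so a lack of calls among so few peaks says little. With IL4 5 of the 27 (18.5%, beside 15.8% of the set and 27.6% of all tested peaks) and none of the 18 were called. With the replicate block, IL4 called 55.6% of the inflammatory peaks (5 higher and 10 lower) and 22.2% of the interferon-response peaks, beside 28.6% of the set and 43.5% of all tested. The median standard error of the interferon-response peaks was 0.80, 0.82 and 0.79 with Cort, Dex and IL4. None of their intervals lay within 1 log2 unit of 0, so the lack of calls there does not show that they stayed level.

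Ribosomal, mitochondrial and proteasome genes are used by every cell. With Cort none of 82 ribosomal protein peaks, 91 oxidative phosphorylation peaks or 43 proteasome peaks was called by edgeR, with 4, 2 and 1 at an unadjusted p under 0.05. With Dex the calls were 0, 1 and 0. The set had 0.540% called with Cort and 2.36% with Dex, and all tested peaks 1.55% and 5.24%. With IL4, 3 ribosomal protein peaks rose and 2 fell (6.10% called), 5 oxidative phosphorylation peaks rose and 1 fell (6.59%), and 3 proteasome peaks rose (6.98%), beside 15.8% of the set and 27.6% of all tested. With the replicate block, IL4 called 11.0% of the ribosomal protein peaks, 24.2% of the oxidative phosphorylation peaks (19 higher and 3 lower) and 18.6% of the proteasome peaks, beside 28.6% of the set and 43.5% of all tested. The interval lay within 0.5 log2 unit of 0 at 59.8% of the ribosomal protein peaks with IL4, against 27.75% of the set. Rpl36 nonetheless rose by 1.21 ± 0.14 with IL4 (adjusted p = 4.92e-05), from 26.4, 26.4 and 28.3 CPM to 62.2, 60.4 and 64.7, at a peak that also spans an end of Micos13. Ribosomal protein genes have many near-identical copies, so their counts are uncertain. Of 36 peaks of unfolded protein response genes 6 rose and 2 fell with IL4 (22.2%), Pdia4, a disulfide isomerase, by 1.54 ± 0.16 (adjusted p = 2.56e-05).

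Dex and Cort were compared directly, at 100 nM and 500 nM, so a difference in compound and one in dose cannot be told apart. Dex carries a fluorine, a methyl group, a further hydroxyl and a further ring double bond that Cort lacks. None of the 10919 peaks was called by edgeR, with 65 at an unadjusted p under 0.05, nor by DESeq2 or with the replicate block, and 0% of all tested peaks were called. The median absolute log2 difference was 0.09, and the 95% interval lay within 1 log2 unit of 0 at 84.0% of the peaks and within 0.5 at 45.65%. At Ddit4 the difference was 0.72 log2 units higher with Dex (interval 0.18 to 1.26, adjusted p = 1). At Fkbp5 it was 0.33 (-0.15 to 0.80) and at Mertk 0.07 (-0.30 to 0.44). A lack of calls does not show that the steroids act alike.

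Against IL4 directly, Cort gave 771 peaks higher and 805 lower (14.4%, where 25% of all tested peaks were called), and Dex 858 and 854 (15.7%, where 26.7% were called). With the replicate block these were 1595 and 1426 (27.7%, beside 40.4% of all tested), and 1729 and 1540 (29.9%, beside 42.7%). The highest named peak with Cort was Cx3cr1, by 2.85 ± 0.33 (adjusted p = 5.09e-05), and with Dex it was Ddit4. The lowest named peak with both was Tmem26, by -4.05 ± 0.35 with Cort (adjusted p = 6.45e-06) and -4.08 ± 0.35 with Dex (adjusted p = 4.87e-06). Without IL4 replicate 3 the counts fell to 1027 and 1109.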

How the data were processed

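H3K27ac and GR ChIP-seq were measured in macrophages. The authors deposited 1 table of read counts per assay, not normalised, with a row for each peak and a column for each library. Per the submitters' processing notes, the tools were fastp, Bowtie2, SAMtools, MACS2 and featureCounts and the build mm10, with no versions or settings stated. How peaks were merged, and what the deposited column named filtered selects (TRUE for 80.3% of the set and 53.4% of all H3K27ac peaks), are not given in the sources used here. The input library was not analysed here.

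Distances and ends came from the RefSeq gene table for GRCm38.p6, strand and sequence from its promoter table. Counts of all 12 H3K27ac libraries were fitted in R 4.3.3 with edgeR 4.0.16 (filterByExpr by group, TMM factors, quasi-likelihood F tests, no block), adjusted over every tested peak by Benjamini-Hochberg. Standard errors were computed as the absolute log2 fold change over the square root of F, and 95% intervals use the t distribution. Scaling by counts in peaks makes all changes relative to other peaks. The biological coefficient of variation was 0.24. Residuals of same-numbered libraries correlated at 0.297 to 0.7345 in 18 pairs and at -0.502 to 0.0755 in the other 36, so the numbers were taken to pair the libraries. The script was tested on simulated data without replicate pairing, with changes set for Cort against vehicle. It called 0 of 48 peaks with a 1.5-fold change and 7 of 50 with a 2-fold change. It called 43 of 50 with a 4-fold change, 47 of 50 with an 8-fold change and 4 of 57877 unchanged peaks. A lack of a call in the main fit therefore does not exclude a 2-fold change.

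Named peaks, each by the gene with the nearest end, are for each treatment the 10 highest and 10 lowest log2 changes among called peaks at or above the median abundance with all treated libraries beyond all vehicle libraries, 1 per gene, without predicted genes. Added are up to 3 genes per list and comparison with the smallest p, 5 each way between treatments, and the 10 most abundant peaks with intervals within 0.5 log2 unit. Other genes given for a list are from among those called. Members, the 21 gene lists and 8 marker lists were chosen with earlier results of these data known. Alternatives were RLE, total-count and low-count scaling, no count filter, DESeq2 1.42.0, the block, the compared groups alone, other definitions of the set, and each library left out. Some items are not reported here.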

Additional observations from a re-analysis of the deposited data

How the results depend on the processing

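The counts called against vehicle, 59 with Cort, 258 with Dex and 1730 with IL4, moved as follows. With the replicate block they were 767, 1448 and 3126, with an absolute log2 change of at least 1 they were 27, 118 and 820, and at transcription starts only 34, 144 and 956. Scaling by low-count peaks gave 30 with Cort and 155 with Dex, the compared groups alone 16 and 130, and DESeq2 143 with Cort. Against IL4, the 1576 calls of Cort were 3021 with the replicate block, 741 at a log2 change of at least 1 and 883 at starts only, and the 1712 of Dex were 3269, 788 and 963. Leaving out 1 library gave 13 to 66 calls with Cort, 83 to 384 with Dex, 1085 to 1415 with IL4, 1027 to 1288 for Cort against IL4, 1109 to 1630 for Dex against IL4 and 0 for Dex against Cort. Of the Cort calls against IL4, 48.9% were higher, and 60.5% when scaled by low-count peaks. The difference in the share of counts ranged without 1 library from -0.356 to 0.599 points with Cort, -0.230 to 0.721 with Dex and -0.485 to 0.466 with IL4, and the IL4 value was 0.022 with peaks under 4000 bp. The cause of these shifts was not tested, other than that smaller sets and stricter rules leave fewer peaks. Of 148 named calls, all 148 held with the replicate block, and of 155 values not called 71 passed with it. The 148 were calls of the main fit and the block called more peaks against vehicle and against IL4. That they held was therefore largely set in advance and says little of how firm they are. Far-end peaks hold fewer counts than start peaks and have larger standard errors, so smaller changes there were not detectable at this depth.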

Other observations

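Cell cycle genes had 43 gene-end peaks without GR. With Dex 2 of them rose, both at Wee1, and 2 fell, at Mcm5, a subunit of the replicative helicase, and at Top2a, the topoisomerase of dividing cells. That is 9.30% of the list, beside 2.36% of all gene-end peaks without GR and 5.24% of all tested peaks. The list's median log2 change was -0.21, from -0.17 to -0.26 over the 4 scalings, beside 0.06 over all gene-end peaks without GR. Top2a changed by -0.77 ± 0.19 (adjusted p = 0.0346) and Mcm5 by -0.88 ± 0.24 (adjusted p = 0.04996). Both calls were lost without Dex replicate 1 or 3 or vehicle replicate 1 or 2. With the replicate block 12 of the 43 fell and 4 rose with Dex (37.2%, beside 13.3% of all gene-end peaks without GR and 20.3% of all tested).

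Histone genes had 50 such peaks, of which 2 fell and none rose with Dex, and 2 rose and 3 fell with IL4. These shares were 4.00% with Dex and 10.0% with IL4. They stood beside 2.36% and 15.8% of all gene-end peaks without GR, and 5.24% and 27.6% of all tested peaks. H1f8, a linker histone of oocytes, rose by 2.15 ± 0.15 with IL4 (adjusted p = 1.52e-06), from 13.2, 11.1 and 10.2 CPM with vehicle to 46.5, 50.2 and 56.5. Replication-dependent histone genes have near-identical copies, so their counts are uncertain.

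Lysosomal genes had 39 peaks, of which 5 rose and 1 fell with IL4. That is 15.4%, near the 15.8% of all gene-end peaks without GR and below the 27.6% of all tested. Ctsb, a cysteine protease, rose by 1.00 ± 0.20 (adjusted p = 0.00217). With Cort no peak was called by edgeR, beside 1.55% of all tested, and 4 had an unadjusted p under 0.05. With the replicate block 4 rose with Cort (10.3%, beside 12.6% of all tested). The summed level at gene ends of 5 osteoclast markers, 3 of which had a peak, was 802 to 951 CPM with vehicle and 1148 to 1316 with IL4.

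The lists that follow are read beside 1.55% of all tested peaks called with Cort, 5.24% with Dex and 27.6% with IL4. Of the gene-end peaks without GR, 0.540%, 2.36% and 15.8% were called. Regulators of the STAT, KLF and bZIP families had 27 peaks, of which 1 rose with Cort, 2 with Dex, at Klf9 and Fosl2 (3.70% and 7.41%), and 7 rose and 1 fell with IL4 (29.6%). Phagocytosis and scavenger receptor genes had 20, of which Mertk alone was called with Cort and with Dex (5.00% each), while 3 rose and 1 fell with IL4 (20.0%). Of 44 splicing peaks, 1 fell with Cort, 1 rose with Dex, and 1 rose and 1 fell with IL4 (2.27%, 2.27% and 4.55%). Of 47 translation factor peaks, none was called with Cort by edgeR (2 at an unadjusted p under 0.05), 1 fell with Dex (2.13%), and 5 rose and 1 fell with IL4 (12.8%). Glycolysis and housekeeping genes had 17 and 18 peaks, each with 1 rise and 1 fall with IL4 (11.8% and 11.1%), and 1 housekeeping peak fell with Dex. Of the markers of other cells, 3 of 6 neutrophil genes, 2 of 5 dendritic genes and 1 of 5 erythroid or megakaryocyte genes had a peak at a gene end. The summed level of the neutrophil markers was 9.91 to 15.0 CPM with vehicle, 16.5 to 20.2 with Cort, 18.7 to 24.3 with Dex and 11.6 to 19.6 with IL4, so both steroid groups lay above vehicle. That of the dendritic markers overlapped between vehicle and each treatment. That of the erythroid or megakaryocyte markers was 67.1 to 72.2 CPM with vehicle and 33.8 to 40.1 with IL4, and the steroid groups overlapped vehicle. The part of other cells in these values was not tested.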
